A study of Mus musculus with 15 samples.

Results

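The contractile genes of vascular smooth muscle described here are 9: Acta2, Myh11, Mylk, Myl9, Lmod1, Cnn1, Des, Smtn and Tagln. They were chosen by symbol from the 27174 genes of the deposited table, and all 9 were found there and passed the filter on low scores. RNA was measured in microvessels isolated from the brains of adult wild-type mice of the strain written as BL6/57, taken 21 days after glioblastoma cells were transplanted into the brain, or from sham-operated mice, for which the labels used here give no day. There are 5 groups of 3 libraries, with 3 mice pooled in every library. The sham group came from healthy operated mice without tumour. The contralateral group came from brain without tumour in tumour-bearing mice given a control IgG. The untreated tumour group came from the tumour-bearing region of mice given control IgG. Dual therapy mice received aflibercept, a decoy receptor for VEGF, together with AMG386, a peptibody that neutralises angiopoietins, and triple therapy mice received both with an antibody against PD1. Vessels of both therapy groups came from the tumour-bearing region. The sources used here do not name the tumour cell line.

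Vascular smooth muscle cells wrap arteries and arterioles and set their diameter. Calcium that enters the cell binds calmodulin, which activates myosin light chain kinase, and the phosphorylated light chain lets smooth muscle myosin pull on actin filaments. Transcription of these genes is driven largely by serum response factor with its cofactor myocardin, and smooth muscle cells that leave the contractile state lower them together.

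The values are deposited normalised scores, which are whole numbers proportional to reads after a scaling by library. The sum of scores per library ran from 11134670 to 15799111, and the estimated reads behind it from 6365690 to 18323670. Mitochondrial ribosomal RNA took 21.47% to 33.19% of the score in untreated tumour libraries, 14.51% to 15.76% in contralateral, 11.91% to 12.39% in sham, 15.23% to 17.37% in dual and 9.55% to 12.23% in triple therapy libraries. It thus moved with the groups, and its part in the differences below was not tested. Differences were tested with limma on log2(score + 1) over 19668 genes, and a gene was called at a Benjamini-Hochberg adjusted p under 0.05. All fold changes below are differences of log2(score + 1) with the standard error (SE) of that fit. The p-values measure the spread between pools of mice. In RNA from whole microvessels, fewer smooth muscle cells and less RNA per cell cannot be told apart.

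Among the genes compared per length in sham vessels, Acta2 stood highest with a mean score of 5736 per kb of exon, followed by Myl9 at 3472 and Myh11 at 2288. Mylk had 731.5 per kb, Smtn 311.8, Des 301 and Lmod1 149.4. Smtn and Des, neighbours in this order, lay closer together than their spread, since the sham SD was 5.71% of the mean for Smtn and 4.001% for Des (n = 3). Cnn1 had 41.79 per kb and Tagln 10.06. Tagln, a marker of smooth muscle that other tissues hold at high levels, was thus the lowest of the 9 in this table. In GENCODE M21, 1241 of the 1988 exon bases of Tagln (62.4%) are shared with Gm48529 on the opposite strand. Gm48529 had no score of its own under that name, so whether it was part of the annotation that was counted is not known. Whether the counting kept the strands apart is not stated in the labels, so the values of Tagln are uncertain. Smtn shares 16.3% of its exon bases with Gm11946 on the opposite strand, whose highest score was 122.

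**Figure D1:**
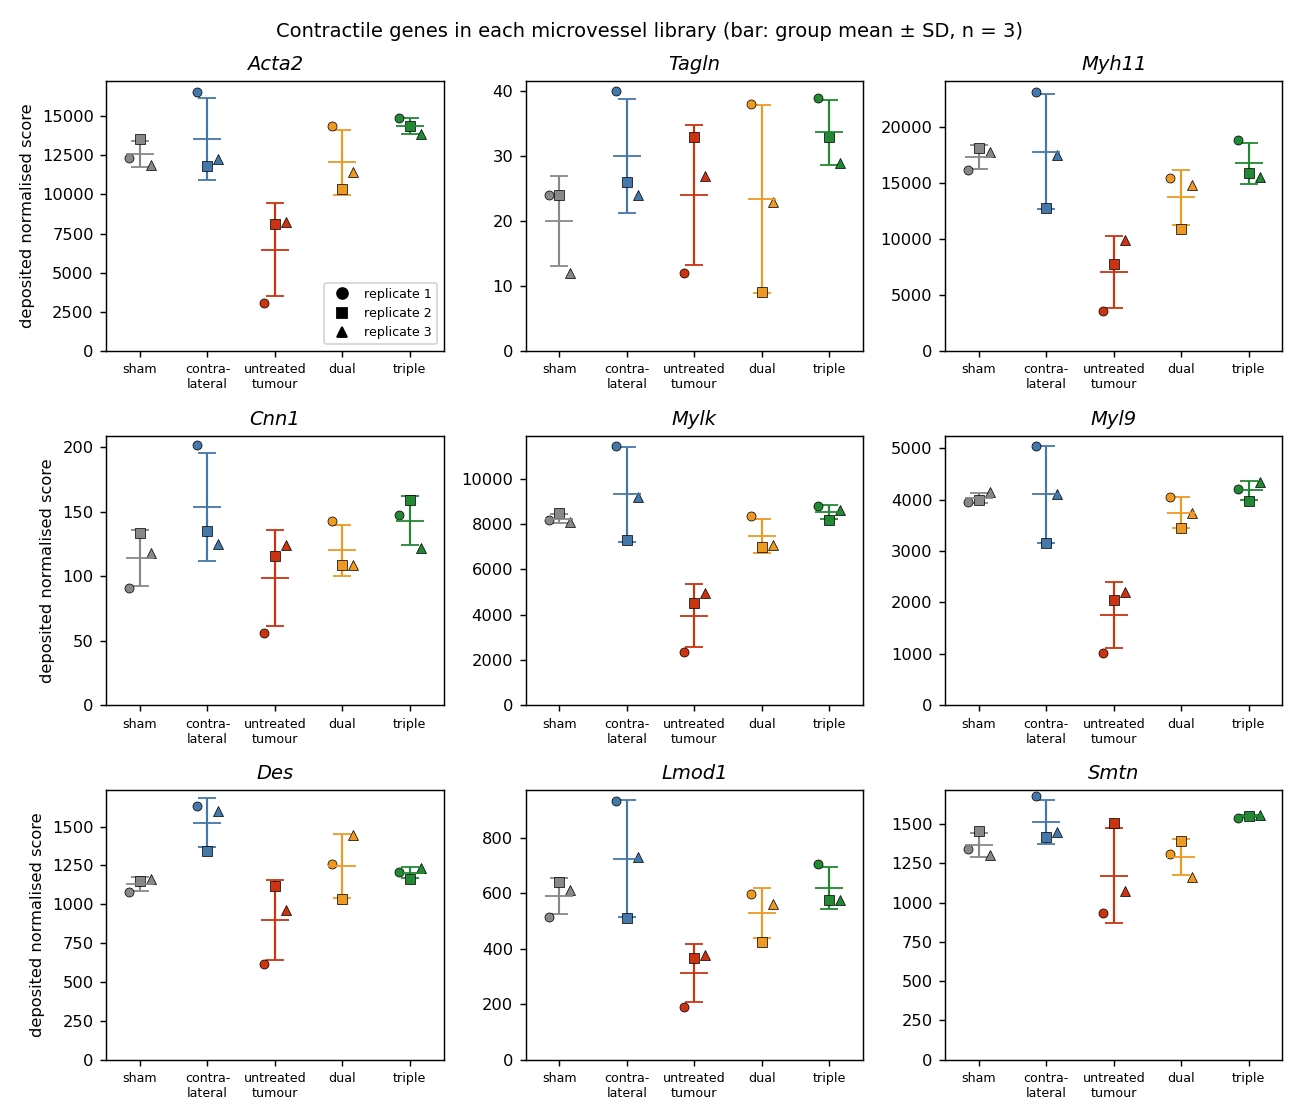
Deposited normalised score (vertical axes from 0, a scale of its own for each gene) of the 9 contractile genes in each of the 15 libraries, with the group mean ± SD (n = 3). For Myh11, the untreated tumour libraries reach 9894 at most, while the lowest library of any other group stands at 10882.

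Acta2 (ENSMUSG00000035783, GRCm38 chr19:34241090-34255336, minus strand) encodes smooth muscle alpha-actin, the thin filament on which myosin pulls. The promoter sequences of Acta2 are shown because they hold letters of the CArG box, the sequence that serum response factor binds. Both pieces are from RefSeq on GRCm38.p6, minus strand, 5′ to 3′, and the capitals mark a match to the CArG box that is 1 letter off. The first match lies 84 to 75 bases before the RefSeq start and the second 34 to 25 bases before it. Both pieces overlap an annotated Acta2 exon in GENCODE M21, so they are called promoter here by the RefSeq start.
Acta2, chr19:34255438-34255467: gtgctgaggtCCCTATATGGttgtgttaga
Acta2, chr19:34255388-34255417: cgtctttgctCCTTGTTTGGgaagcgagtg
In untreated tumour, the Acta2 score was 3043, 8117 and 8263 in replicates 1, 2 and 3. It was 12355, 13534 and 11897 in sham and 16582, 11819 and 12257 in contralateral vessels. All 3 untreated tumour libraries lay below every library of both control groups, and replicate 1 lay far below the other tumour libraries. Dual therapy gave 14395, 10340 and 11449, and triple therapy 14920, 14359 and 13854. No library of either therapy overlapped with untreated tumour. Acta2 fell in untreated tumour against contralateral by 1.19 ± 0.26 (SE) on the log2 scale (limma adjusted p = 0.00123), to 47.77% of the contralateral mean score. It rose by 1.02 ± 0.26 with dual therapy (limma adjusted p = 0.00901) and by 1.29 ± 0.26 with triple therapy (limma adjusted p = 0.00104), both against untreated tumour.

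Myh11 (ENSMUSG00000018830, chr16:14194527-14291408, minus strand) encodes the heavy chain of smooth muscle myosin, the motor itself. Its scores were 16172, 18160 and 17832 in sham, 23172, 12821 and 17535 in contralateral and 3524, 7790 and 9894 in untreated tumour. With dual therapy they were 15501, 10882 and 14813, and with triple therapy 18892, 15918 and 15543. Untreated tumour again stood below all other libraries without overlap, and contralateral replicate 1 was the highest of the 15. The fall against contralateral was the steepest of the 9 genes, at -1.42 ± 0.27 (SE, limma adjusted p = 0.000372), to 39.62% of the contralateral mean. Against untreated tumour, Myh11 rose by 1.07 ± 0.27 with dual therapy (limma adjusted p = 0.00887) and by 1.37 ± 0.27 with triple therapy (limma adjusted p = 0.000898).

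Mylk (ENSMUSG00000022836, chr16:34784921-35002420, plus strand) encodes myosin light chain kinase, the calcium-dependent switch of contraction. Its scores were 8176, 8465 and 8077 in sham, 11447, 7292 and 9172 in contralateral and 2357, 4529 and 4958 in untreated tumour. Dual therapy gave 8351, 6991 and 7089, and triple therapy 8796, 8178 and 8620. The untreated tumour libraries were the 3 lowest of the 15, and the triple therapy libraries lay within the range of the contralateral ones. Mylk fell by 1.28 ± 0.20 against contralateral (limma adjusted p = 5.9e-05) and rose by 0.99 ± 0.20 with dual (limma adjusted p = 0.00228) and 1.18 ± 0.20 with triple therapy (limma adjusted p = 0.000268).

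Myl9 (ENSMUSG00000067818, chr2:156775420-156781658, plus strand) encodes the regulatory light chain that this kinase phosphorylates. Among the 7 contractile genes with a RefSeq promoter entry, its promoter was the single one with an exact CArG box within 250 bases before the start, and it is shown for that reason. The sequence is from RefSeq on GRCm38.p6, plus strand, 5′ to 3′. The first capitals mark the exact CArG box, 161 to 152 bases before the start, and the second a match 1 letter off, 99 to 90 bases before it.
Myl9, chr2:156775270-156775419: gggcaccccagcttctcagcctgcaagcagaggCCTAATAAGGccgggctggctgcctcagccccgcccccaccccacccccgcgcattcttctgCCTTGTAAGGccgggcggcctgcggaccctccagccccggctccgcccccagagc
Of all 32851 promoters in the table, 1.47% held an exact CArG box in the same window on either strand, and 8.59% held one exactly or 1 letter off, against 2 of the 7 contractile genes (Acta2 and Myl9). Only a C or G among the A and T letters in the middle of the box counted as 1 letter off, with the outer CC and GG kept. A match describes the letters and is not evidence of binding. Myl9 scored 3955, 3999 and 4150 in sham, 5038, 3155 and 4117 in contralateral and 1014, 2053 and 2202 in untreated tumour. It scored 4054, 3449 and 3737 with dual and 4202, 3979 and 4351 with triple therapy. Untreated tumour did not overlap with any other group. The fall against contralateral was 1.28 ± 0.21 on the log2 scale (limma adjusted p = 8.6e-05). Myl9 rose by 1.17 ± 0.21 with dual therapy (limma adjusted p = 0.000806), the largest rise of the 9 genes in that comparison, and by 1.33 ± 0.21 with triple therapy (limma adjusted p = 0.000122).

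Lmod1 (ENSMUSG00000048096, chr1:135324807-135368065, plus strand) encodes leiomodin 1, which nucleates actin filaments in smooth muscle. It scored 516, 642 and 612 in sham, 933, 512 and 729 in contralateral and 191, 367 and 378 in untreated tumour. Scores were 597, 426 and 562 with dual therapy and 705, 577 and 576 with triple therapy. Every untreated tumour library lay below every other library, as for the actin and myosin genes. Lmod1 fell by 1.24 ± 0.23 against contralateral (limma adjusted p = 0.000316) and rose by 0.81 ± 0.23 with dual (limma adjusted p = 0.0179) and 1.05 ± 0.23 with triple therapy (limma adjusted p = 0.00216).

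Des (ENSMUSG00000026208, chr1:75360329-75368579, plus strand) encodes desmin, the intermediate filament of muscle, which pericytes also make. Its scores were 1078, 1152 and 1160 in sham, 1633, 1346 and 1598 in contralateral and 613, 1118 and 965 in untreated tumour. Dual therapy gave 1259, 1033 and 1445, and triple therapy 1209, 1163 and 1233. Untreated tumour lay below contralateral and triple therapy without overlap, but overlapped with sham and with dual therapy. Des fell by 0.80 ± 0.17 against contralateral (limma adjusted p = 0.000793), and its difference from sham was -0.37 (limma adjusted p = 0.0741). It rose by 0.50 ± 0.17 with dual (limma adjusted p = 0.0378) and by 0.46 ± 0.17 with triple therapy (limma adjusted p = 0.0409).

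Smtn (ENSMUSG00000020439, chr11:3517523-3539292, minus strand) encodes smoothelin, an actin-binding protein of contractile smooth muscle. It scored 1341, 1453 and 1303 in sham, 1677, 1419 and 1447 in contralateral and 934, 1510 and 1073 in untreated tumour. Dual therapy gave 1307, 1392 and 1164, and triple therapy 1542, 1553 and 1556. Untreated tumour replicate 2 stood within the contralateral range, and the triple therapy libraries, at 1542 and more, lay just above that replicate. The fall against contralateral was 0.40 ± 0.14 on the log2 scale (limma adjusted p = 0.0259) and the rise with triple therapy 0.43 ± 0.14 (limma adjusted p = 0.0209). The difference between dual therapy and untreated tumour was 0.16 (limma adjusted p = 0.432).

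Cnn1 (ENSMUSG00000001349, chr9:22099216-22109630, plus strand) encodes calponin 1, which binds actin and damps the myosin motor. Scores were low: 91, 134 and 118 in sham, 202, 135 and 125 in contralateral and 56, 116 and 124 in untreated tumour. Dual therapy gave 143, 109 and 109, and triple therapy 148, 159 and 122. Only replicate 1 of untreated tumour lay clearly below the sham libraries, and the 3 tumour libraries lay just under the contralateral ones, with 124 against 125 at the border. The difference from contralateral was -0.69 ± 0.27 (limma adjusted p = 0.048). That call was lost in 16 of 24 alternative analyses, whose adjusted p ranged from 0.0195 to 0.332. Against untreated tumour, the difference was 0.35 with dual (limma adjusted p = 0.378) and 0.60 with triple therapy (limma adjusted p = 0.096).

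Tagln (ENSMUSG00000032085, chr9:45929619-45936058, minus strand) encodes transgelin, an actin-bundling protein. Its scores were 24, 24 and 12 in sham, 40, 26 and 24 in contralateral, 12, 33 and 27 in untreated tumour, 38, 9 and 23 with dual and 39, 33 and 29 with triple therapy. The groups overlapped widely. The difference between untreated tumour and contralateral was -0.39 ± 0.48 (limma adjusted p = 0.547), with a 95% interval that spans 0.

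Microvessels of the untreated tumour thus held less RNA of the contractile genes than contralateral vessels. Of the 9 genes, 8 fell and none rose, with a median log2 fold change of -1.19 against 0.008 over all genes tested. The untreated and contralateral libraries did not overlap for 7 genes, all except Smtn and Tagln. Over all genes tested, 42.5% were called in either direction and 21.4% were called lower, and 24.5% were lower without overlap. Against sham, 5 of the 9 fell, and the same 5 lay below sham without overlap. Here 46.6% of all genes were called, 23.3% were called lower and 26.6% were lower without overlap. These 5 were Myh11 (-1.42, limma adjusted p = 0.000294), Myl9 (-1.28, 6.3e-05), Mylk (-1.13, 0.000159), Acta2 (-1.09, 0.00202) and Lmod1 (-0.98, 0.00202). Cnn1 (-0.28), Smtn (-0.25) and Tagln (0.20) did not pass against sham, nor did Des. In the F-test over all 5 groups, 6 of the 9 differed, against 43.5% of all genes. Acta2, Myh11, Mylk, Myl9, Lmod1 and Des passed it, whereas Smtn (limma adjusted p = 0.0681), Cnn1 (0.204) and Tagln (0.529) did not.

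Both therapies were compared with untreated tumour, which answers whether contractile gene RNA differed in treated tumour vessels. With dual therapy, 6 of the 9 genes rose and none fell. Over all genes tested, 22.3% were called and 12.1% were called higher. With triple therapy 7 of the 9 rose, Smtn being the addition, and all 7 lay above untreated tumour without overlap. Over all genes tested, 32.2% were called, 17.2% were called higher and 21.5% were higher without overlap. Mean scores with dual therapy were 213.3% of untreated tumour for Myl9, 194.2% for Myh11, 189.4% for Mylk and 186.3% for Acta2. With triple therapy they were 237.8%, 237.4%, 216.1% and 222.1% for the same genes. For Myh11 the mean score was 13732 ± 2492 with dual and 16784 ± 1835 with triple therapy (SD, n = 3), beside 17388 ± 1066 in sham and 17843 ± 5182 in contralateral vessels. The dual therapy mean was thus 78.97% of the sham mean, and the triple therapy mean 96.53%. Both therapies were compared with the same 3 untreated libraries.

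**Figure D2:**
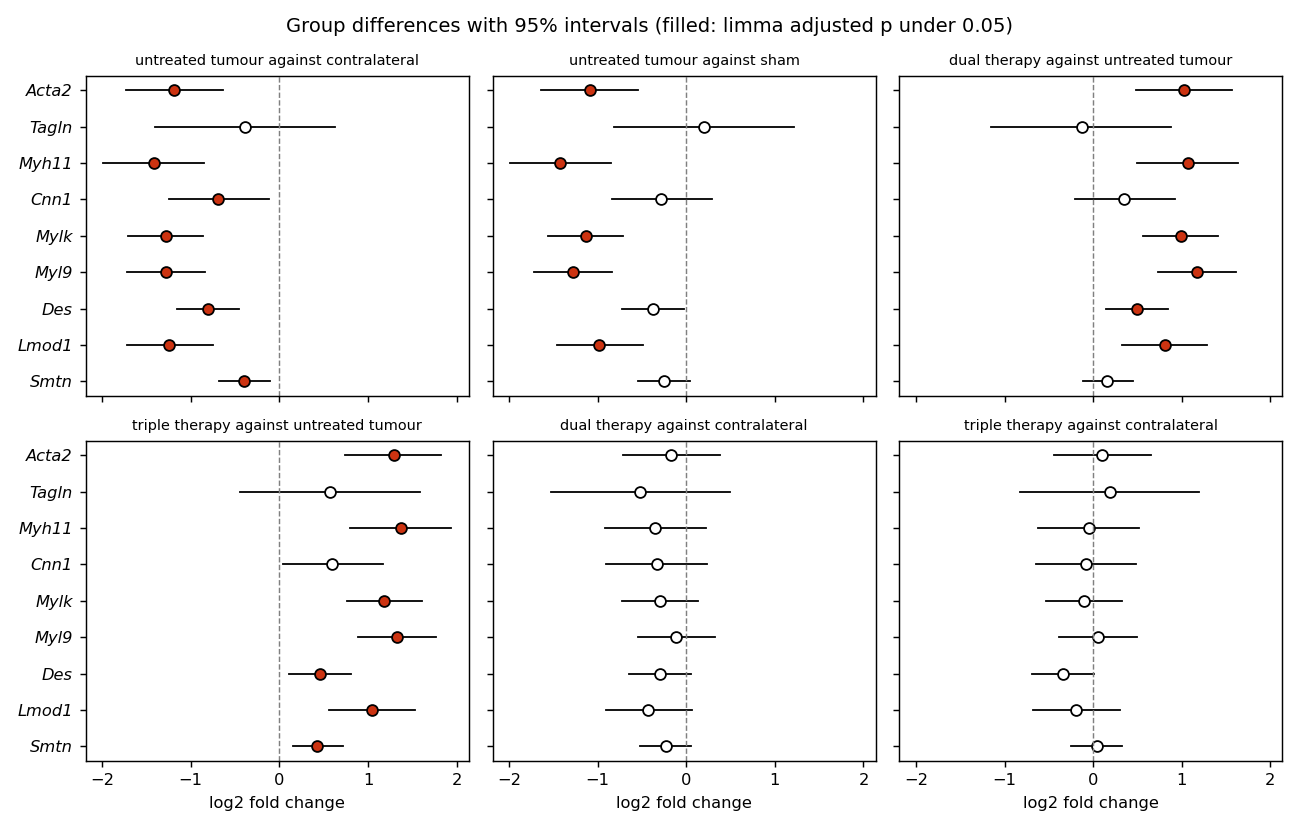
Log2 fold change with its 95% interval (horizontal axes) of the 9 contractile genes in 6 comparisons; filled points passed a limma adjusted p of 0.05. The filled genes of untreated tumour lie left of 0 against both controls, the therapies lie right of 0 against untreated tumour for 6 and 7 filled genes, and no gene is filled for either therapy against contralateral.

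None of the 9 genes was called between triple and dual therapy, where 0.869% of all genes were called by limma. At an unadjusted p under 0.05, 2850 genes differed between the therapies but none of the 9. The 95% interval of the triple-minus-dual difference ran from -0.28 to 0.81 for Acta2, from -0.27 to 0.87 for Myh11, from -0.28 to 0.60 for Myl9 and from -0.01 to 0.56 for Smtn. Rises of these sizes with the added antibody therefore lie within the error. The triple therapy libraries lay above the dual ones without overlap for 2 of the 9 genes, against 9.27% of all genes. They were Myh11, with 15543 as the lowest triple and 15501 as the highest dual score, and Smtn, with a difference of 0.27 ± 0.14 (limma adjusted p = 0.374).

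Treated tumour vessels were also set against vessels without tumour. None of the 9 genes was called by limma in dual therapy against contralateral (12.8% of all genes called) or triple therapy against contralateral (4.97%). The same was true of dual therapy against sham (18.5%) and triple therapy against sham (9.73%). Some groups did not overlap all the same. Dual therapy lay below sham for Myh11 (17.3% of all genes were lower without overlap) and below contralateral for Smtn (13.6%). Triple therapy lay below contralateral for Des (10.5%). It lay above sham for 4 of the 9 genes, Acta2, Tagln, Des and Smtn, where 14.6% of all genes were higher without overlap. The intervals leave room for sizeable differences: for Myh11 in dual therapy against contralateral, the difference was -0.35 with an interval from -0.92 to 0.22. Among the 8 genes that fell in untreated tumour, Lmod1 lay lowest with dual therapy against contralateral, at -0.43 (-0.91 to 0.06). With triple therapy Des lay lowest, at -0.34 (-0.69 to 0.01).

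Contralateral and sham vessels gave no call among the 9 genes, where 0.432% of all genes were called by limma. Myh11 differed by 0.00 (95% interval -0.57 to 0.57) and Myl9 by 0.00 (-0.44 to 0.44). Des was higher in all 3 contralateral libraries than in any sham library, by 0.43 ± 0.17, which reached an unadjusted p of 0.0192 in limma and an adjusted p of 0.302. Of the 9 genes it was the single one without overlap, against 8.50% of all genes that were higher without overlap.

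Replicate 1 of untreated tumour was the lowest of its group for all 9 genes and the lowest of all 15 libraries for all except Tagln. Its summed score over the 9 genes was 11744, while the highest library of its group reached 27884, and sham libraries ranged from 43708 to 47563. Without this library, Acta2 differed from contralateral by -0.71 (limma adjusted p = 0.00105), Myh11 by -0.98 (0.000815), Mylk by -0.95 (4.86e-05), Myl9 by -0.92 (6.01e-05), Lmod1 by -0.92 (0.00154) and Des by -0.55 (0.00304). These 6 genes thus kept their call with smaller differences. Cnn1 (-0.33, limma adjusted p = 0.303) and Smtn (-0.25, 0.154) lost theirs, and the Tagln difference was 0.03.

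The rises with therapy were also smaller without that library. With dual therapy, Acta2 rose by 0.54 (limma adjusted p = 0.019), Myh11 by 0.63 (0.0402), Mylk by 0.65 (0.00504) and Myl9 by 0.81 (0.0011). Lmod1 (0.49, limma adjusted p = 0.11) and Des (0.25, 0.222) were no longer called, which left 4 genes. With triple therapy, Acta2 (0.81, limma adjusted p = 0.000627), Myh11 (0.93), Mylk (0.85), Myl9 (0.97) and Lmod1 (0.73, 0.0126) still rose, and Des (0.21) and Smtn (0.28) did not pass. Against sham, the same 5 genes fell without the library, Acta2 by 0.62 and Myh11 by 0.98 on the log2 scale. Without replicate 2 of untreated tumour, Des (-0.55, limma adjusted p = 0.00924) and Smtn (-0.45, 0.00323) were called lower than sham as well.

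The balance among the 9 genes also differed in untreated tumour vessels. Acta2, Myh11, Mylk, Myl9 and Lmod1, grouped here after their values were seen, were taken as a reference within each library, and every other gene was set against their mean log2 level, with the sham mean at 0. In untreated tumour, Cnn1 stood at 0.91 ± 0.04, Smtn at 0.93 ± 0.51, Des at 0.81 ± 0.29 and Tagln at 1.38 ± 0.21 (SD, n = 3). In contralateral vessels the same genes stood at 0.31, 0.05, 0.33 and 0.49, and with dual therapy at 0.25, 0.08, 0.30 and 0.24. The RNA of these 4 genes was thus more abundant relative to the reference genes in untreated tumour, and with therapy the ratios lay nearer to sham. With triple therapy they were 0.27, 0.12, 0.03 and 0.71. The Tagln ratio rests on low and uncertain scores. Its SD was 0.55 in sham, and with dual therapy its libraries stood at 0.94, -0.63 and 0.41. The ratios give unequal change and carry no test, since the grouping followed the values. The reference genes were also those that fell most against sham, so the direction in untreated tumour follows from that choice.

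**Figure D3:**
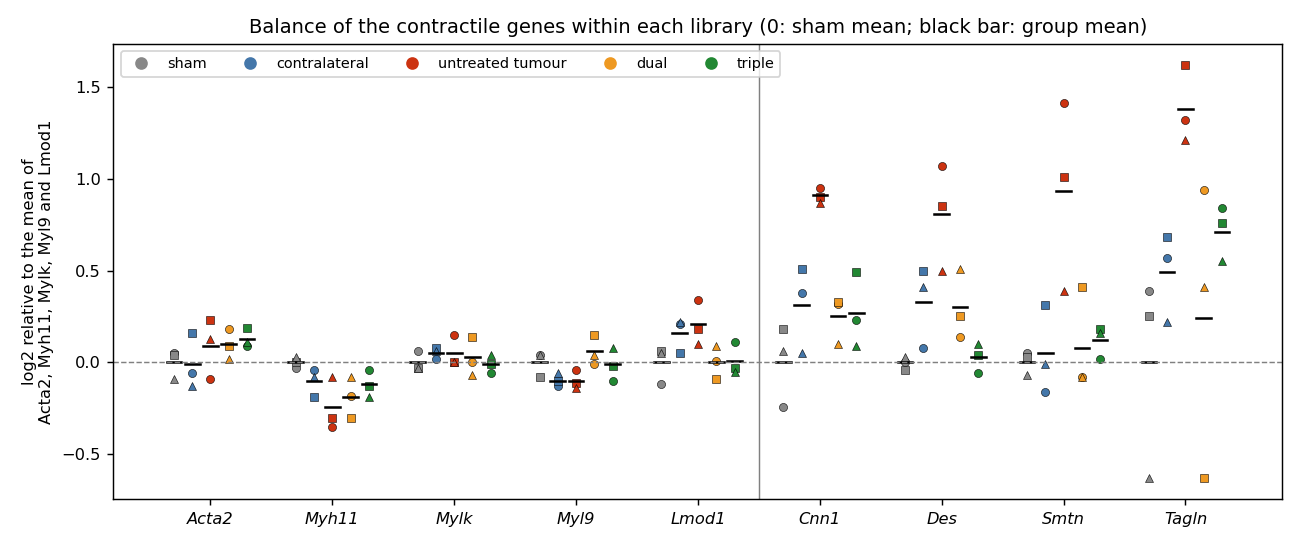
Log2 level of each contractile gene relative to the mean of Acta2, Myh11, Mylk, Myl9 and Lmod1 in the same library (vertical axis, sham mean at 0), with 1 point per library, marker shape for the replicate and a bar for the group mean. The first 5 genes form the reference, so their closeness to 0 follows from that choice. The untreated tumour points of Cnn1, Des, Smtn and Tagln lie higher, at means of 0.81 to 1.38, a direction that follows from the same choice.

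Within groups, most of the 9 genes varied together across libraries. Over the deviations of the 15 libraries from their group means, Pearson's r was between 0.88 and 0.99 for the 10 pairs among Acta2, Myh11, Mylk, Myl9 and Lmod1. With those 5 genes, r was 0.82 to 0.91 for Cnn1 and 0.81 to 0.86 for Des, close to the values among the 5. It was between 0.40 and 0.67 for pairs with Smtn and between 0.40 and 0.75 for pairs with Tagln. Each point is a library, so the pairs share its depth and scaling. Untreated tumour replicate 1 weighs heavily in these r. Relative to the sham mean, Acta2 stood at -2.05, -0.63 and -0.61 in untreated tumour, beside 0.25, 0.19 and 0.14 with triple therapy. The r without that library were not computed.

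The rest of the contractile apparatus was followed in gene lists that leave out the 9 genes. Beside the counts in these lists, 42.5% of all genes were called in untreated tumour against contralateral, and 21.4% were called lower. Against untreated tumour, 12.1% of all genes were called higher with dual and 17.2% with triple therapy. Of 28 tested genes of the other contractile cytoskeleton, 15 fell and 1 rose in untreated tumour against contralateral (median -0.44). Itga8, the integrin alpha chain of smooth muscle, fell by 1.51 ± 0.26 (limma adjusted p = 0.000129), Tns1, which links actin to adhesions, by 1.27 ± 0.16 (5.03e-06) and Synpo2 by 1.17 ± 0.20. The gene that rose was Vim, the intermediate filament vimentin shared by many cell types, at 0.35 (limma adjusted p = 0.0191), a call lost without untreated tumour replicate 2 (0.25, 0.0776) or contralateral replicate 3 (0.28, 0.0979). Of the nonmuscle myosins, Myh10 differed by 0.08 (limma adjusted p = 0.63). Myh9 differed by 0.25 (limma adjusted p = 0.142) and passed without contralateral replicate 2 (0.43, 0.00639) and with endothelial scaling (0.55, 0.00753). With dual therapy 12 of the 28 rose and 1 fell, and with triple therapy 16 rose and none fell. Without untreated tumour replicate 1, 6 rose with dual therapy. With endothelial scaling, 6 fell and 5 rose in untreated tumour against contralateral, and 4 rose with dual and 6 with triple therapy. With quantile normalisation 3 rose against contralateral and 10 with triple therapy, and without contralateral replicate 2 the rises against contralateral were 5.

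Genes for calcium handling and ion channels showed the same direction in nearly all cases. Of 17 tested genes, 16 fell in untreated tumour against contralateral, with a median of -1.22, and 1 rose. Kcnma1, the calcium-gated potassium channel that relaxes smooth muscle, fell by 2.26 ± 0.21 (limma adjusted p = 2.67e-07), from a mean score of 2012.3 ± 214.9 to 426.3 ± 97.01 (SD, n = 3). Its mean score was 2714.3 ± 439.2 in sham, 928.7 ± 309.8 with dual and 1311.7 ± 290.9 with triple therapy. Which cells of the preparation gave this RNA was not tested. Casq2, a calcium store protein, fell by 1.75 ± 0.16 (limma adjusted p = 1.33e-07). Cacnb2, a subunit of voltage-gated calcium channels, fell by 1.59 ± 0.15 and Ano1, a calcium-activated chloride channel, by 1.36 ± 0.12. Trpc6, a receptor-operated cation channel, was the gene that rose (0.56, limma adjusted p = 0.0144), a call lost without contralateral replicate 3 (0.49, 0.0586). With dual therapy 14 of the 17 rose and none fell, and with triple therapy 15 rose and Trpc6 fell. The counts of rises were the same without untreated tumour replicate 1, at 14 and 15, while endothelial scaling left 8 with dual therapy. Against sham, 6 of the 17 were lower with dual and 3 with triple therapy, where 18.5% and 9.73% of all genes were called. Against contralateral, 4 were lower with dual and 1 with triple therapy, where 12.8% and 4.97% were called. None was higher in these comparisons.

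Receptors and cyclic nucleotide enzymes that set vessel tone gave 12 falls and no rise among 16 tested genes (median -1.16). Adra1a, an alpha-1 adrenergic receptor, fell by 3.35 ± 0.28 (limma adjusted p = 6.99e-08), from a mean score of 95.7 ± 9.504 to 8.7 ± 2.517 (SD, n = 3). Its mean score was 76.3 in sham, 28.7 with dual and 63.3 with triple therapy, and which cells gave this RNA was not tested. Both subunits of soluble guanylate cyclase, the sensor of nitric oxide, were lower: Gucy1b3 fell by 1.65 ± 0.12 (limma adjusted p = 1.51e-08) and Gucy1a3 by 1.53 ± 0.16. Ednra, the endothelin receptor of smooth muscle, fell by 0.79 ± 0.10. With dual therapy 9 of the 16 rose, and with triple therapy 10 rose, none falling in either. The count with dual therapy was 5 with endothelial scaling and 5 with only the 6 libraries compared. With dual therapy, 4 of the 16 were lower than sham (18.5% of all genes called) and 2 lower than contralateral (12.8%), and none was higher. With triple therapy none was called against sham (9.73%) or contralateral (4.97%). Adra1a rose by 1.64 with dual (limma adjusted p = 0.000566, and 0.0591 with only the 6 libraries) and by 2.75 with triple therapy (2.23e-06).

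Regulators of contractile gene transcription were described in the same way. Of 24 tested genes of the list of serum response factor, myocardin and Notch regulators, 16 fell and 2 rose in untreated tumour against contralateral (median -0.48). Myocd, the cofactor myocardin, had mean scores of 359 ± 52.14 in sham, 424 ± 85.11 in contralateral and 177.3 ± 92.88 in untreated tumour (SD, n = 3). It fell by 1.41 (limma adjusted p = 0.000856), and rose with triple therapy by 1.23 (0.00395). With dual therapy its difference was 0.81 (limma adjusted p = 0.0583). Without untreated tumour replicate 1, the Myocd differences were -0.87 against contralateral and 0.69 with triple therapy, both still called, and 0.26 with dual therapy (limma adjusted p = 0.328). Without replicate 2 or 3 of untreated tumour, the rise with dual therapy passed, at 1.15 (limma adjusted p = 0.00705) and 1.01 (0.0351). Srf itself differed by -0.41 (limma adjusted p = 0.0579), and passed without dual therapy replicate 3, a library outside the comparison (0.024). Notch3, the Notch receptor of mural cells, fell by 1.30 ± 0.15, its target Heyl by 1.28 ± 0.18, Tbx18 by 1.28 ± 0.17 and Mef2c by 0.97 ± 0.11. Klf4, which can repress contractile genes, fell by 0.79 (limma adjusted p = 0.00278, and by 0.50 without untreated tumour replicate 1). It rose by 1.48 with dual (limma adjusted p = 6.16e-05) and 1.27 with triple therapy (8.29e-05). Its mean score was 3582 ± 256.4 with dual and 3143 ± 774.4 with triple therapy (SD, n = 3). In sham it was 3073 ± 201.8, and in contralateral vessels 2217 ± 184.6. The list gave 7 rises with dual and 14 with triple therapy, and 4 and 7 without untreated tumour replicate 1. Without triple therapy replicate 3, 9 rose with triple therapy. With endothelial scaling 8 fell against contralateral, 2 rose with dual therapy, and 6 rose and 2 fell with triple therapy.

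**Figure D4:**
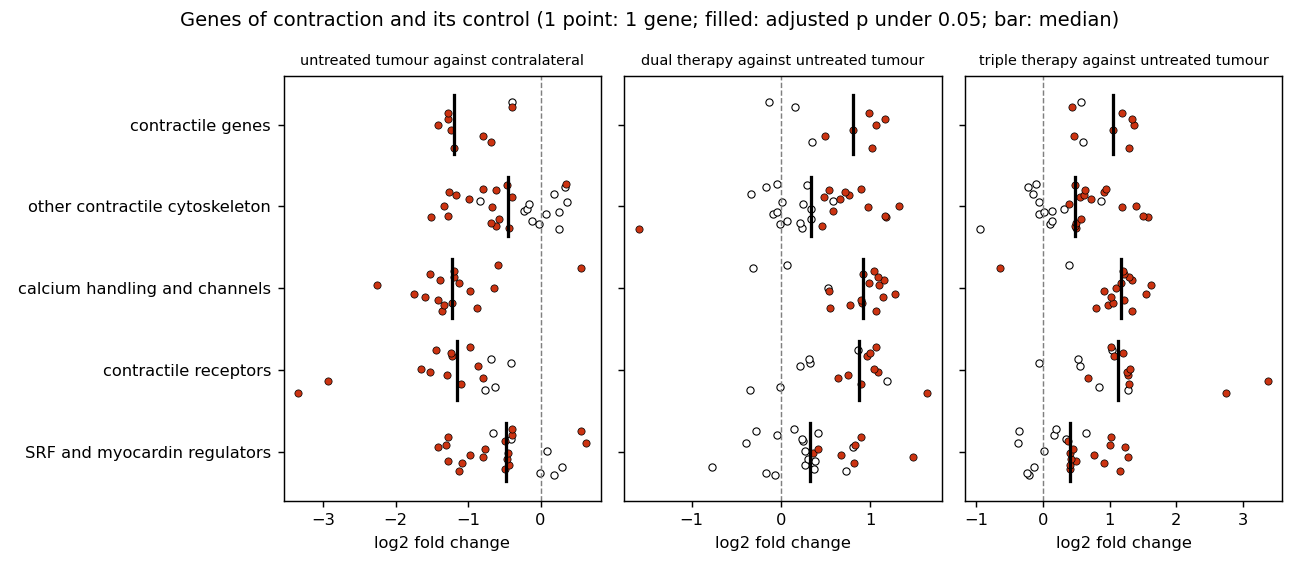
Log2 fold change (horizontal axes) of each tested gene of the 9 contractile genes and 4 further lists, in 3 comparisons; filled points passed a limma adjusted p of 0.05 and the bar is the list median. In untreated tumour against contralateral the medians run from -1.22 for calcium handling to -0.44 for the other contractile cytoskeleton, and both therapies place all 5 medians right of 0.

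Against sham, the lists gave 16 falls and 2 rises for the other contractile cytoskeleton, 15 and 1 for calcium handling, 14 and none for the receptors, and 13 and 3 for the regulators. Over all genes tested, 46.6% were called against sham and 23.3% were called lower. Contralateral and sham vessels did not give a call in any of these 4 lists, where 0.432% of all genes were called, so few calls were to be found.

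The genes outside all lists whose level most resembled that of the 9 contractile genes were Srl, Rasl12, Vgll3, Sncg, Marveld1, Gsn, Angpt1 and Dpysl3. Likeness was Pearson's r over the 15 libraries with the mean standardised level of the 9 genes, among 12492 genes with a mean score of at least 50, and it ran from 0.957 for Srl to 0.942 for Dpysl3. Since they were chosen for this likeness over the same libraries, a lower level in untreated tumour follows from the choice, and the values are a description. The difference from contralateral was -1.59 on the log2 scale for Srl, which encodes sarcalumenin of the calcium store, and -1.22 for Angpt1, a ligand of the receptor Tie2. Without untreated tumour replicate 1 the differences were -1.01 for Srl and -0.85 for Angpt1. The mean score of Angpt1 was 497.3 in sham, 564.3 in contralateral, 247.7 in untreated tumour, 463.7 with dual and 488.7 with triple therapy. The protein it encodes is among the angiopoietins that AMG386 neutralises.

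Markers of the other cells in microvessel preparations moved too. Beside their counts, 42.5% of all genes were called in untreated tumour against contralateral, and 21.4% were called lower. Of 14 pericyte genes, 10 fell and 1 rose in untreated tumour against contralateral (median -0.91), and their summed score was 33211 to 34882 in untreated tumour, 57705 to 74195 in contralateral and 66325 to 67020 in sham vessels. It was 51802 to 63163 with dual and 57154 to 73929 with triple therapy. Pdgfrb fell by 1.22 ± 0.13 and Rgs5 by 1.22 ± 0.15. The pericyte gene that rose was Mcam, by 0.74 ± 0.13 (limma adjusted p = 0.000138). Against untreated tumour, Mcam differed by -0.95 with dual and -0.75 with triple therapy. Of 11 fibroblast genes 6 fell and 2 rose. Those that rose were Col1a1, by 1.0 (limma adjusted p = 0.00066), and Col3a1, by 1.16 (5.64e-05). Of 13 genes of arterial endothelium, which lines the vessels that smooth muscle wraps, 12 fell and none rose. Of 18 genes of endothelial identity, 8 fell and 1 rose (median -0.39), with sums of 96889 to 144341 in untreated tumour and 168449 to 194998 in contralateral vessels. Of 10 venous genes, 3 rose and 2 fell. Brain cell markers fell also: 6 of 8 astrocyte genes, and 8 of 9 neuron genes, whose sum was 1811 to 3524 in untreated tumour, 9514 to 11816 in contralateral and 13277 to 17403 in sham vessels. With therapy that sum was 4069 to 7455 in dual and 6141 to 9149 in triple therapy libraries. With endothelial scaling, 7 arterial and 4 endothelial identity genes fell. No listed marker had a group mean of 0. The part of these cell types in the contractile gene differences, and in those of the further lists, was not tested.

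The libraries did not order the lists in the same way. Relative to the sham mean, untreated tumour replicates 1, 2 and 3 stood at -1.42, -0.37 and -0.40 for the mean log2 level of the 9 contractile genes. For arterial endothelium they stood at -1.60, -0.56 and -0.66, with the same library lowest. For pericytes they stood at -0.46, -0.59 and -0.62, and for fibroblasts at -0.46, -0.53 and -0.41, where replicate 1 did not stand apart. Endothelial identity had replicate 1 lowest, at -0.58, with -0.13 and -0.39 in the others. Contralateral replicate 1, the highest library of its group for the contractile genes at 0.55, was the lowest of its group for pericytes at 0.04, but the highest for fibroblasts at 0.44. In dual therapy, too, fibroblasts stood at 0.33, -0.61 and -0.18 in the order of the contractile genes, at 0.16, -0.34 and -0.05. Arterial (-0.2, -0.4 and -0.3) and venous endothelium (1.02, 0.57 and 0.73) had that order as well. Pericytes (-0.12, -0.04 and -0.25) and endothelial identity (-0.01, 0.12 and -0.16) did not. When the scores were scaled by endothelial genes, the median of all genes moved to 0.32 in untreated tumour against contralateral. Tested against 0 on that scale, 5 of the 9 contractile genes fell, and Des (-0.50, limma adjusted p = 0.062), Cnn1 (-0.38, 0.332) and Smtn (-0.09, 0.672) did not pass. The scaling moves all genes of a library by the same amount, so the distance of each gene from the median of all genes is kept.

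**Figure D5:**
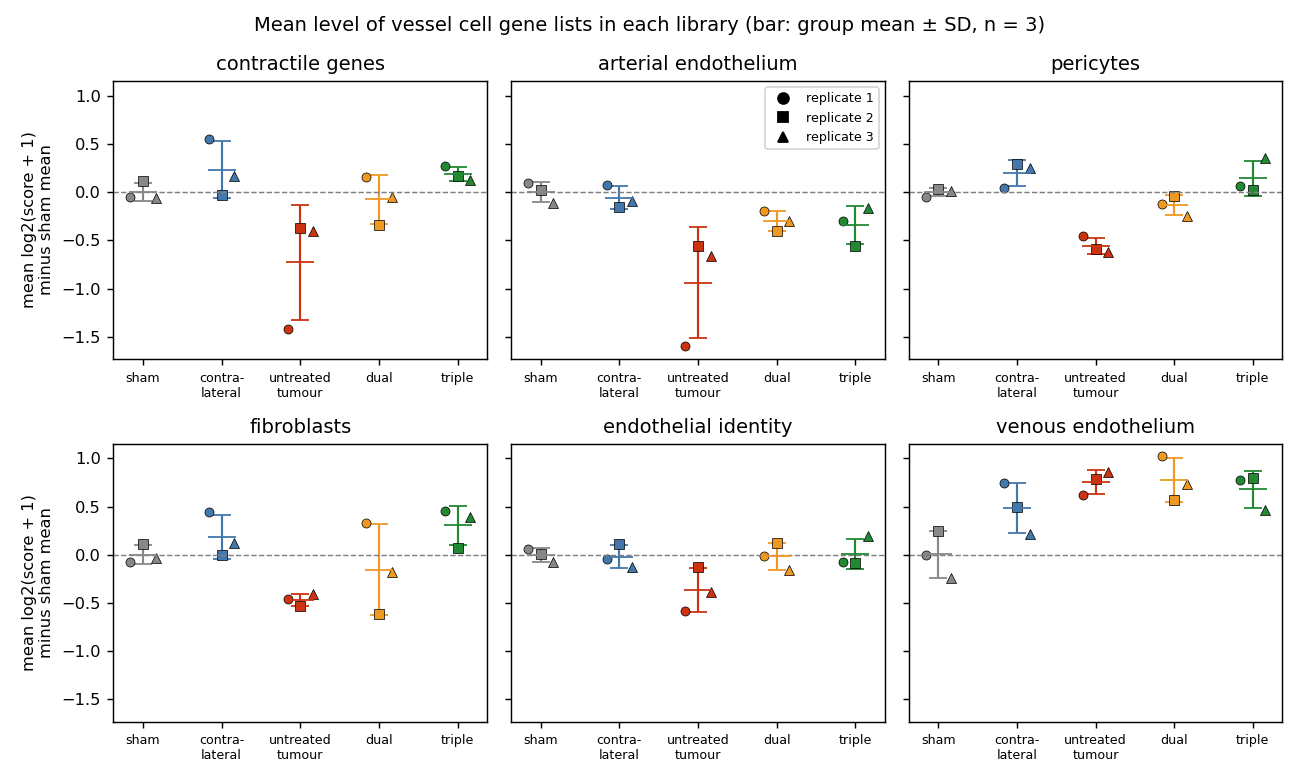
Mean log2(score + 1) of 6 gene lists minus the sham mean (vertical axis) in each library, with the group mean ± SD (n = 3). For contractile genes and arterial endothelium, untreated tumour replicate 1 stands apart at -1.42 and -1.60, while for pericytes the 3 untreated tumour libraries lie together between -0.62 and -0.46.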

How the data were processed

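RNA of 15 microvessel pools was purified with a column kit and DNase and made into libraries with a stranded total RNA kit, per the labels' protocols. Per the submitters' processing notes, the authors used STAR 2.4.0a, featureCounts 1.4.5-p1 and DESeq2 with the build GRCm38. The strand setting of the counting is not stated there. The deposited table holds a normalised score per gene and library, in whole numbers that are not read counts. Reads were estimated from the step between low scores, with 1 read worth 0.6558 to 1.8609 units. Of 27174 identifiers, 27114 were found in GENCODE M21.

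A gene entered the tests when 3 or more libraries had a score of 10 or more, which held for 19668 genes and left out 7506. limma 3.58.1 in R 4.3.3 was fitted with a mean-variance trend to log2(score + 1) of all 15 libraries, with 1 mean per group and 10 residual degrees of freedom. This scale understates fold changes of genes with low scores. Benjamini-Hochberg adjustment ran over all genes within each of 10 comparisons. The procedure was tested on simulated data. The members, lists, tests and alternatives were chosen with earlier results of these data known. Named genes are the 9 members, up to 4 genes per list with the smallest adjusted p in untreated tumour against contralateral, and the 8 genes outside the lists most like the members. Myocd, Srf, Klf4, Vim, Trpc6, Myh9, Myh10, Mcam, Col1a1 and Col3a1 were named after their values were seen. One gene list and some genes that this rule names are not reported here. Gucy1a3 and Gucy1b3 are older symbols, as the table gives them. The CArG box was searched on both strands of RefSeq promoters, from 250 bases before each start. A letter off was allowed only between its outer CC and GG. Alternatives were another pseudocount, no filter, no trend, voom on approximate reads, quantile and endothelial scaling, a replicate block, only the 6 libraries compared, and libraries left out.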

Additional observations from a re-analysis of the deposited data

How the results depend on the processing

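No contractile gene that was called changed direction under 24 alternatives. Scaling by endothelial genes left 5 of the 9 genes fallen in untreated tumour against contralateral and 3 risen in dual therapy against untreated tumour, and fitting only the 6 libraries compared also gave 3 risen in the latter. Endothelial scaling gave, over all genes, 25 calls in contralateral against sham, 1249 in dual therapy against contralateral, 2378 in dual against sham, 2800 in dual against untreated tumour, 0 in triple against dual and 986 in triple against sham. Fitting only the 6 libraries compared gave 0 in contralateral against sham, 2205 in dual against untreated tumour, 31 in triple against dual and 3197 in triple against sham. Without the trend there were 8 calls in contralateral against sham and 14 in triple against dual. Without untreated tumour library 2 and dual therapy library 2 these were 208 and 90. Leaving out 1 library at a time gave 22 to 177 calls in contralateral against sham, 1587 to 2983 in dual against contralateral, 2844 to 4649 in dual against untreated tumour, 595 to 1162 in triple against contralateral, 0 to 403 in triple against dual and 1103 to 2268 in triple against sham. In these fits with 1 library left out, the contractile genes called ranged from 6 to 8 fallen against contralateral, 4 to 7 risen with dual and 5 to 7 risen with triple therapy. In triple therapy against untreated tumour the call of Des was lost in 11 alternatives and that of Smtn in 9, and in dual therapy that of Des in 7 and of Lmod1 in 6. Same-numbered libraries did not deviate together (r from -0.13 to 0.103), so the numbers were not used as pairs. With the replicate block, Cnn1 differed from contralateral by -0.69 (limma adjusted p = 0.0588), and no other contractile gene changed its call. Low scores limit Tagln and Cnn1 most.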
